A study of Homo sapiens with 12 samples.

Results

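The subject is 6 long noncoding RNAs, followed through androgen treatment and paxillin knockdown in C4-2 cells. They are PCA3, PCGEM1, DRAIC and PCAT14, which are known from prostate cancer, and NEAT1 and MALAT1, which are abundant nuclear RNAs in most tissues. They were chosen by symbol, and all 6 have a row among the 56269 gene symbols of the deposited count table. C4-2 is an established prostate cancer line, a descendant of LNCaP that grows without testicular androgen, and every library comes from this 1 line. All cells received small interfering RNA (siRNA) for 48 h and then 12 h without serum. The 4 groups were nonspecific siRNA with ethanol vehicle, nonspecific siRNA with 2.5 nM dihydrotestosterone (DHT), paxillin siRNA with ethanol vehicle, and paxillin siRNA with 2.5 nM DHT, each treated for 24 h. Paxillin (PXN) is a focal adhesion adaptor protein, and DHT is the potent natural ligand of the androgen receptor. Each group held 3 libraries, 12 in all.

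Long noncoding RNAs are transcribed and usually spliced like messenger RNAs but carry no long reading frame. NEAT1 is the scaffold on which paraspeckles, a class of nuclear bodies, assemble, and MALAT1 gathers in nuclear speckles, where splicing factors are stored. PCA3 is the RNA behind a urine test for prostate cancer, PCGEM1 is an RNA enriched in prostate, DRAIC is an RNA reported to be lowered by androgen and to restrain cell migration, and PCAT14 is a prostate cancer transcript from a locus that includes an endogenous retrovirus.

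Levels are in CPM, the counts of a gene relative to its library total after TMM scaling. The smallest library held 11944906 counts and the deepest 32040465, and 1 count was worth 0.0328 to 0.0815 CPM. PXN itself lay between 121 and 151 CPM in the 6 libraries with nonspecific siRNA and between 9.36 and 16.7 CPM in the 6 with paxillin siRNA. The androgen-induced gene FKBP5 rose with DHT under both siRNAs, from 47.5 ± 2.29 to 1225 ± 169 CPM and from 47.7 ± 1.75 to 1022 ± 120 CPM (SD, n = 3 each). All 10 luminal prostate markers examined were at 91.9 CPM or more in every library. Of 15 markers of basal, stromal, blood and endothelial cells, 10 had at most 3 counts in every library; the others were KRT14, COL3A1, ACTA2, VWF and COL1A1, the last at 24.8 to 47.6 CPM. In sequencing of bulk RNA, fewer cells holding an RNA and less of that RNA per cell cannot be told apart.

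The 6 RNAs differed greatly in abundance. Of the 6, DRAIC, NEAT1, MALAT1 and PCAT14 passed the filter on low counts and were tested among 16115 genes, while PCA3 and PCGEM1 did not pass. PCAT14 passed through its DHT libraries alone, so that a difference with DHT followed from the filter and its calls there are no support. With nonspecific siRNA, DHT was followed by a rise of PCAT14 and a fall of DRAIC, MALAT1 and NEAT1 at an adjusted p under 0.05, where 40.5% of all tested genes were called, 21.6% higher and 18.9% lower. With paxillin siRNA, DHT was followed by a rise of PCAT14 and a fall of DRAIC and MALAT1, where 38% of all tested genes were called, 20.1% higher and 17.9% lower. Paxillin siRNA in vehicle was followed by a rise of DRAIC and a fall of MALAT1, where 20.5% of tested genes were called, 10.7% higher and 9.78% lower. In DHT, DRAIC alone of the 4 changed with paxillin siRNA, where 13.3% of tested genes were called, 6.34% higher and 7% lower. With the replicate block that comparison called more genes, 1681 higher and 1805 lower against 1021 and 1128. None of the 4 passed the test of the interaction, which asks whether paxillin siRNA altered the DHT response and called 0.0496% of tested genes, 0.0372% higher and 0.0124% lower. Since so many genes responded, these counts single out none of the 6 RNAs, and each is described by its own values.

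**Figure D1:**
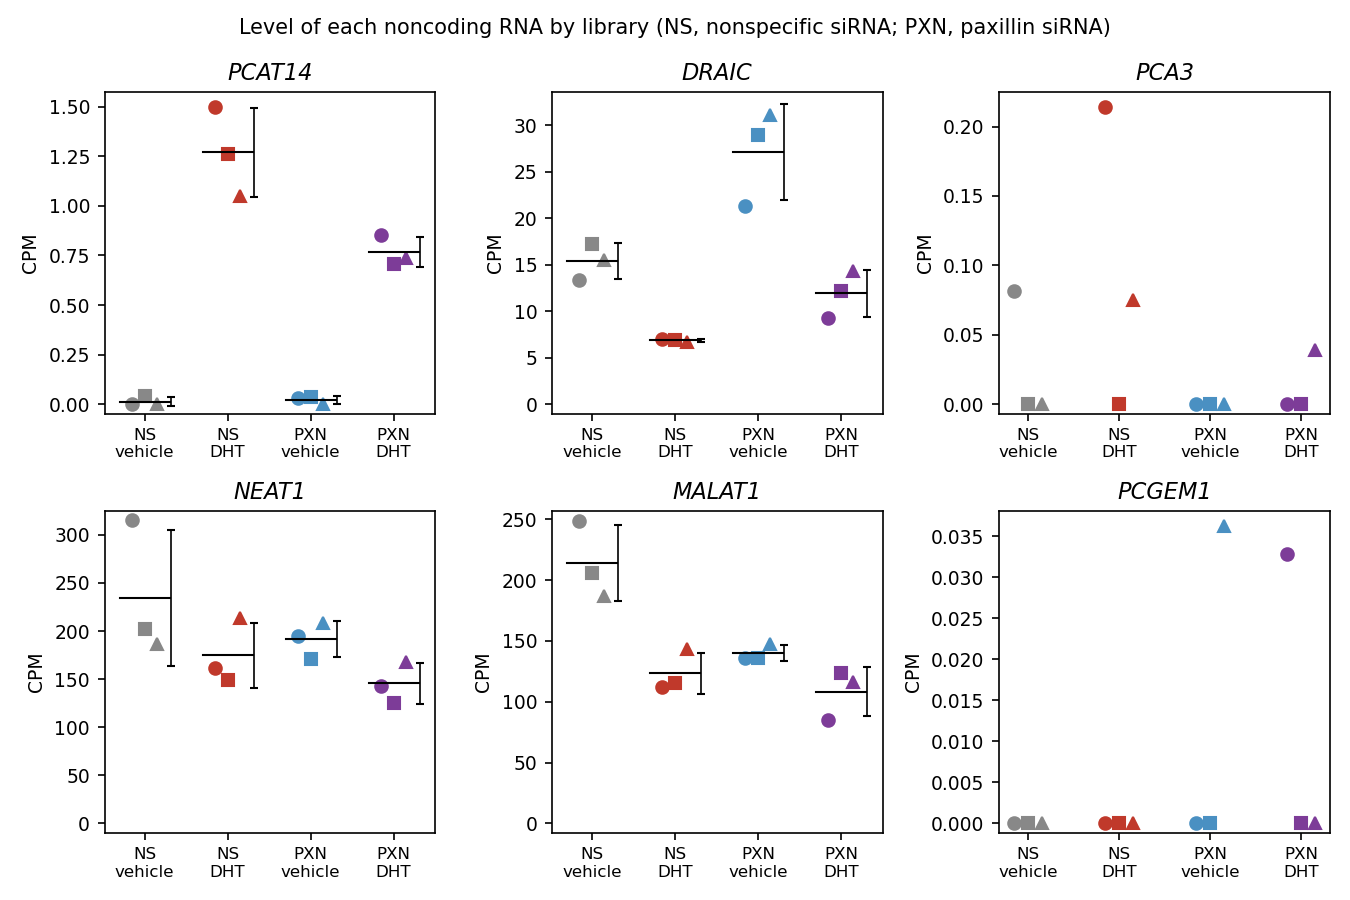
Level in CPM (vertical axis, a different scale in each panel) of the 6 RNAs in each library, by siRNA and treatment. Circles, squares and triangles are replicates 1, 2 and 3; horizontal lines are group means and bars are SD (n = 3), left out for PCA3 and PCGEM1, which had 9 and 2 counts in all. PCAT14 is near 0 in both vehicle groups, DRAIC is highest with paxillin siRNA in vehicle, and MALAT1 is highest with nonspecific siRNA in vehicle.

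PCAT14 was nearly undetected without androgen and present in every library with it. Its counts in the 3 libraries with nonspecific siRNA and vehicle were 0, 1 and 0, and with DHT they were 35, 29 and 28. With paxillin siRNA they were 1, 1 and 0 in vehicle and 26, 18 and 19 in DHT. No vehicle library held more than 1 count and no DHT library fewer than 18, so the treatments did not overlap under either siRNA. The same held for 50.4% of all tested genes with nonspecific and 48.6% with paxillin siRNA. The level in DHT was 1.27 ± 0.225 CPM with nonspecific and 0.766 ± 0.0759 CPM with paxillin siRNA (SD, n = 3 each). The level per count of library totals was 81.5 times higher with DHT under nonspecific siRNA, on 92 counts against 1, with a 95% exact interval of 14.3 to 3255. Under paxillin siRNA it was 33.0 times higher, on 63 counts against 2, with an interval of 8.75 to 278. These intervals cover counting error only. The fitted log2 fold changes were 5.97 ± 0.64 and 4.77 ± 0.59 (SE, edgeR). They are given as a description, since the vehicle groups held 1 and 2 counts and the values depend on the prior count. The first moved to 8.01 without nonspecific vehicle replicate 2, the only library of that group with a count, and to 5.36 without replicate 3.

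Under DHT, the 3 paxillin siRNA libraries of PCAT14 all lay below the 3 nonspecific ones, at 0.708 to 0.852 CPM against 1.05 CPM or more; 32.1% of all tested genes had no overlap between these groups. The ratio was 0.612 on 63 against 92 counts, with a counting interval of 0.437 to 0.852. This difference did not pass the test across all genes (log2 -0.72 ± 0.32, SE; edgeR adjusted p = 0.146). In vehicle no comparison was possible beyond 2 counts against 1 (log2 0.48 ± 1.27, SE; adjusted p = 0.845). The interaction was -1.19 with a 95% interval of -4.25 to 1.86 on the log2 scale (adjusted p = 0.864), which is too wide to tell whether the response to DHT was alike under the siRNAs.

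The annotation places PCAT14 at chr22:23536881-23547797 of GRCh38, plus strand, with 3 transcripts and 4911 bases of exon. Of its distinct 50-base words, 1.55% also occur in transcripts of 37 other genes, and reads from such stretches may be split or dropped by the counting. Among 651 tested genes annotated as long noncoding, PCAT14 ranked 533rd by mean level. Within 200 kb 3 genes were tested. Of these, the pseudogene ZDHHC8P1, upstream of PCAT14, rose with DHT by 2.62 (adjusted p = 7.74e-05) and 2.40 (adjusted p = 7.0e-05) on the log2 scale under nonspecific and paxillin siRNA. It is a low transcript too, with a highest group mean of 1.25 CPM, and as a pseudogene it may share reads with its parent gene. A rise on so low a level may follow from the filter, as for PCAT14, so its calls are no support either. DRICH1 and AP000347.2, the other neighbours, were not called.

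DRAIC moved in opposite directions with DHT and with paxillin siRNA. Its level fell with DHT and rose with paxillin siRNA, each to nearly the same extent whatever the other condition. With nonspecific siRNA it was 13.4, 17.2 and 15.5 CPM in vehicle replicates 1, 2 and 3, and 6.98, 6.89 and 6.71 CPM in DHT. With paxillin siRNA it was 21.3, 28.9 and 31.2 CPM in vehicle and 9.31, 12.1 and 14.4 CPM in DHT. The groups did not overlap in any of the 4 comparisons, and paxillin siRNA with vehicle was highest. Among all tested genes, groups did not overlap for 50.4% and 48.6% with DHT under nonspecific and paxillin siRNA, and for 35.9% and 32.1% with paxillin siRNA in vehicle and DHT. The group means ran from 6.86 ± 0.137 CPM with nonspecific siRNA and DHT, through 11.9 ± 2.54 with paxillin siRNA and DHT and 15.4 ± 1.92 with nonspecific siRNA and vehicle, to 27.1 ± 5.18 CPM with paxillin siRNA and vehicle (SD, n = 3 each). The neighbours in the middle of that order, which differ in both agents, overlapped.

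The fall of DRAIC with DHT was -1.18 ± 0.16 on the log2 scale with nonspecific siRNA (SE; edgeR adjusted p = 1.48e-05), a 2.26-fold fall. It was -1.19 ± 0.15 with paxillin siRNA (adjusted p = 4.25e-06), a 2.28-fold fall. The rise with paxillin siRNA was 0.80 ± 0.15 in vehicle (adjusted p = 0.000987) and 0.79 ± 0.16 in DHT (adjusted p = 0.00353), or 1.74-fold and 1.73-fold. Both responses passed the test under each of 19 alternative settings, among them leaving out each library in turn. The interaction was -0.01, with a 95% interval of -0.48 to 0.47 on the log2 scale (adjusted p = 0.994). That interval bounds the difference between the responses.

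The DRAIC gene is annotated at chr15:69463026-69843120 of GRCh38, plus strand, with 20 transcripts and 18461 bases of exon, of which 159 are shared with a gene on the other strand. RefSeq places PCAT29, another prostate cancer transcript that androgen is reported to lower, inside this span, so reads could have been shared between the 2 rows. PCAT29 held 65 counts in the nonspecific vehicle group and 35 with DHT, then 130 in the paxillin vehicle group and 34 with DHT. It fell with DHT by 1.05 ± 0.35 on the log2 scale (SE; edgeR adjusted p = 0.0231) with nonspecific siRNA and by 1.87 ± 0.32 (adjusted p = 0.000176) with paxillin siRNA. The change of PCAT29 with paxillin siRNA was 0.62 in vehicle (adjusted p = 0.158) and -0.20 in DHT (adjusted p = 0.782), and neither passed. Of the 3 protein-coding genes tested within 200 kb of the DRAIC start, PAQR5, a membrane progestin receptor, rose with paxillin siRNA by 0.64 in vehicle (adjusted p = 0.0258) and by 0.69 in DHT (adjusted p = 0.0227). KIF23, a mitotic kinesin, fell with DHT under paxillin siRNA by 0.46 (adjusted p = 0.00157). The ribosomal protein gene RPLP1, the nearest of the 3, was not called in any comparison.

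The sequence around a DRAIC start site is shown because DRAIC was the member called in all 4 pairwise comparisons. It runs from 250 bases before to 50 bases after the RefSeq start, at chr15:69561470-69561769 of GRCh38.p14, plus strand. Capitals mark matches to CCAAT on either strand, and the matches at positions -152 and -149 from the start overlap. This RefSeq start, at 69561720, differs from the GENCODE gene start, at 69463026, from which the neighbours were measured.
DRAIC: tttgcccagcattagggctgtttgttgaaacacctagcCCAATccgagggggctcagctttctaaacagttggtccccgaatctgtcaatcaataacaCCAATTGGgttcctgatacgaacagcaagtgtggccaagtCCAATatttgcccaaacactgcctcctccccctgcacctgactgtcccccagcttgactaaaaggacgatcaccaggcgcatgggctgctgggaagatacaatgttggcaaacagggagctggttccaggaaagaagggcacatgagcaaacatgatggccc
The window was searched on both strands for AGAACA, a core word of androgen receptor elements, its palindrome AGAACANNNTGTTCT, TATAAA and CCAAT. Only CCAAT was found, with 4 matches, and it is present in 34.6% of 35116 RefSeq promoter windows of the same length. The shares of windows with the other words were 14.8% for AGAACA, 0.00285% for the palindrome and 11.5% for TATAAA. A missing word says only that these letters are not in this window.

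PCA3 was at the limit of detection. It had 9 counts over the 12 libraries: 1, 0 and 0 with nonspecific siRNA and vehicle, 5, 0 and 2 with nonspecific siRNA and DHT, 0 in all 3 with paxillin siRNA and vehicle, and 0, 0 and 1 with paxillin siRNA and DHT. Replicate 1 of the nonspecific DHT group held 5 of the 9. With nonspecific siRNA the ratio of DHT to vehicle was 6.20 on 7 counts against 1, with an exact interval of 0.797 to 280 that includes no difference. In DHT the ratio of paxillin to nonspecific siRNA was 0.128 on 1 count against 7, with an interval of 0.00283 to 0.993 for counting error only; the libraries of the 2 groups overlapped. A count of 0 over the paxillin vehicle group allows a level of up to 0.0351 CPM (3 counts over the group).

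PCA3 lies antisense within PRUNE2, which encodes a large cytoplasmic protein, at chr9:76691980-76863307 of GRCh38, plus strand. Of its 14174 exon bases, 1060 overlap PRUNE2 exons on the other strand, and 9.7% of its 50-base words occur in transcripts of other genes. The kit keeps strand, but whether the counting used it is not given in the sources used here, so a few reads of PRUNE2 cannot be told apart from PCA3. PRUNE2 was abundant, at 1921 ± 187, 1512 ± 71.4, 1354 ± 12.6 and 1372 ± 111 CPM in nonspecific vehicle, nonspecific DHT, paxillin vehicle and paxillin DHT (SD, n = 3 each). It fell with DHT under nonspecific siRNA by 0.35 ± 0.08 on the log2 scale (SE; edgeR adjusted p = 0.00197) and with paxillin siRNA in vehicle by 0.50 ± 0.08 (adjusted p = 0.000315). It was not called with DHT under paxillin siRNA or with paxillin siRNA in DHT.

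PCGEM1, at chr2:192749845-192776899 of GRCh38, plus strand, had 2 counts in all, 1 in paxillin vehicle replicate 3 and 1 in paxillin DHT replicate 1. The 6 libraries with nonspecific siRNA had none, which allows levels of up to 0.0464 CPM in the vehicle group and 0.0411 CPM in the DHT group. Neither an androgen response nor an siRNA effect was detectable at this depth. TMEFF2, a transmembrane protein gene that lies on the same chromosome and belongs to the list of partner genes, rose with DHT by 1.96 ± 0.19 with nonspecific siRNA (SE; edgeR adjusted p = 1.66e-07) and by 2.16 ± 0.18 with paxillin siRNA (adjusted p = 3.45e-08) on the log2 scale. No tested gene lay within 200 kb of PCGEM1 or PCA3.

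**Figure D2:**
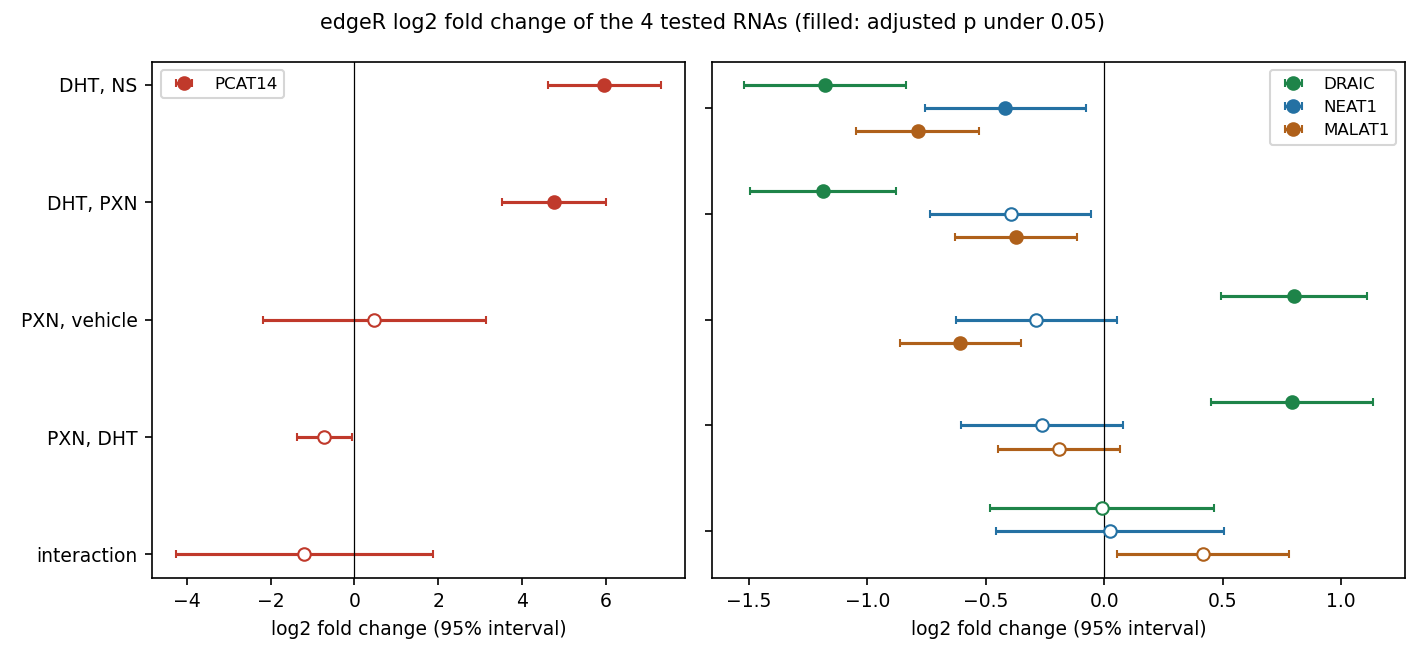
Log2 fold change (horizontal axis) of the 4 tested RNAs in the 5 comparisons, with 95% intervals from the edgeR fit of all 12 libraries; PCAT14 has its own panel and scale. Filled points have an adjusted p under 0.05. DRAIC lies at -1.18 and -1.19 for DHT and at 0.80 and 0.79 for paxillin siRNA, and every interaction is an open point.

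MALAT1 was highest in the group that received neither DHT nor paxillin siRNA. It was at 248, 206 and 187 CPM in nonspecific vehicle replicates 1, 2 and 3, and at 112, 116 and 143 CPM in nonspecific DHT. With paxillin siRNA it was at 136, 136 and 147 CPM in vehicle and at 85.2, 124 and 116 CPM in DHT. The nonspecific vehicle libraries lay above the libraries of every other group, and paxillin DHT was lowest by its mean, with overlap between it and nonspecific DHT. Among all tested genes, 50.4% had no overlap with DHT under nonspecific siRNA, and 35.9% with paxillin siRNA in vehicle. The means were 214 ± 31.3, 123 ± 17.0, 140 ± 6.45 and 108 ± 20.4 CPM in the order given (SD, n = 3 each).

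MALAT1 fell with DHT by 0.79 ± 0.12 on the log2 scale under nonspecific siRNA (SE; edgeR adjusted p = 5.4e-05). Under paxillin siRNA the fall was 0.37 ± 0.12 (adjusted p = 0.0233), and it did not pass without paxillin vehicle replicate 3 (-0.34, adjusted p = 0.0639) or without paxillin DHT replicate 1 (-0.22, adjusted p = 0.134). MALAT1 fell with paxillin siRNA by 0.61 ± 0.12 in vehicle (adjusted p = 0.00202); the difference in DHT was -0.19 ± 0.12 and did not pass (adjusted p = 0.339). The 2 DHT responses differed by 0.42 ± 0.17, with a 95% interval of 0.05 to 0.78. This interaction had an unadjusted p of 0.027 and an adjusted p of 0.502 in edgeR, so a smaller DHT response under paxillin siRNA is not established across the genes tested. It passed only when no filter on low counts was used (edgeR adjusted p = 0.0212), where the difference was 0.41 and its SE fell to 0.10.

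NEAT1 varied more between replicates than MALAT1. It was at 315, 202 and 186 CPM in nonspecific vehicle replicates 1, 2 and 3, and at 161, 149 and 213 CPM in nonspecific DHT. With paxillin siRNA it was at 195, 171 and 208 CPM in vehicle and at 143, 125 and 168 CPM in DHT. Groups overlapped in every comparison except DHT against vehicle under paxillin siRNA, where the 3 DHT libraries were all lower. In that comparison 48.6% of all tested genes had no overlap. The means were 234 ± 70.2, 175 ± 33.9, 191 ± 18.8 and 146 ± 21.6 CPM in the order given (SD, n = 3 each). The highest library, nonspecific vehicle replicate 1, also had the smallest total of the 12, at 11944906 counts.

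The difference of NEAT1 with DHT was -0.42 ± 0.16 on the log2 scale under nonspecific siRNA (SE; edgeR adjusted p = 0.0482), just inside the threshold. It was -0.15 (adjusted p = 0.4) without nonspecific vehicle replicate 1. It also missed the threshold without nonspecific DHT replicate 1 (-0.36, adjusted p = 0.146), nonspecific DHT replicate 2 (-0.31, adjusted p = 0.194) or paxillin vehicle replicate 2 (-0.42, adjusted p = 0.0524), with DESeq2 (adjusted p = 0.142) and with limma-voom (adjusted p = 0.0575). With the replicate number as a block it passed (-0.42, adjusted p = 0.00749). Under paxillin siRNA the difference was similar in size, -0.39 ± 0.16, and just outside the threshold (adjusted p = 0.064). With the block it was -0.40 and passed (adjusted p = 0.0103). In the fit without the block both NEAT1 differences with DHT lay near the threshold, and the interaction was 0.02 with a 95% interval of -0.46 to 0.50 (adjusted p = 0.988). The differences with paxillin siRNA were -0.29 in vehicle (adjusted p = 0.234) and -0.26 in DHT (adjusted p = 0.314).

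NEAT1 and MALAT1 are neighbours on chromosome 11, both on the plus strand, at chr11:65422774-65445540 and chr11:65497688-65506516 of GRCh38, with 52147 bases between them. Their long transcripts are known to end not in a poly(A) tail but in a triple helix, formed when 2 U-rich stretches fold onto an A-rich tract at the end left by RNase P. The short NEAT1 transcript has an ordinary poly(A) tail. The ends are shown because they set these RNAs apart from tailed mRNAs, and the library kit selects mRNA. The first 2 are the 90 bases up to the last A of the A-rich tract in MALAT1-202 (chr11:65506027-65506116) and NEAT1-202 (chr11:65445451-65445540), with capitals for the end of that tract and for a 16-base U-rich stretch found in both. The last is the end of a short transcript, NEAT1-208 (chr11:65426424-65426513), with capitals for the polyadenylation signal. All are on the plus strand of GRCh38, from GENCODE 29 transcripts.
MALAT1-202: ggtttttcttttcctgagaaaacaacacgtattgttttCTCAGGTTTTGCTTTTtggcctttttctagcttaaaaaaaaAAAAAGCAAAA
NEAT1-202: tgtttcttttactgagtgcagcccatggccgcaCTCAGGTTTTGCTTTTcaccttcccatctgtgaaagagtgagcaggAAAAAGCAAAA
NEAT1-208: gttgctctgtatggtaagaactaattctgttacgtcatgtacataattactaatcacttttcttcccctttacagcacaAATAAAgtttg
The run of A before the final GCAAAA is 13 bases long in MALAT1 and 5 in NEAT1. The gene counts do not separate the short and long NEAT1 transcripts, which begin at the same end.

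As a measure of RNA quality and of capture, the share of counts from RNAs without a long poly(A) tail (12 genes of the list in the table, histones and small nuclear or cytoplasmic RNAs) was 0.0183% to 0.0266% in nonspecific vehicle and 0.0158% to 0.0193% in nonspecific DHT. It was 0.0185% to 0.0200% in paxillin vehicle and 0.0132% to 0.0164% in paxillin DHT. The share was thus lower in DHT by range, without overlap under paxillin siRNA, beside the lower MALAT1 and NEAT1. Much of the share came from HIST1H1C, at 132, 111, 104 and 76.4 CPM in the same order of groups. Of 8 such genes tested, 2 fell with DHT under nonspecific siRNA and 1 under paxillin siRNA, HIST1H1C each time included. The called shares were 25% and 12.5%, beside 40.5% and 38% of all tested genes. The median log2 changes of the 8 were -0.17 and 0.09, so they did not fall as a set under paxillin siRNA. With paxillin siRNA in vehicle, where MALAT1 fell, HIST1H1C alone of the 8 was called and fell, and the median was -0.44. With paxillin siRNA in DHT, 2 of the 8 rose and 1 fell, and the median was 0.32. The shares called were 12.5% and 37.5%, beside 20.5% and 13.3% of all tested genes. The share of mitochondrial counts was at least 3.44% in nonspecific vehicle, 2.46% to 3.44% in nonspecific DHT, 3.63% to 4.45% in paxillin vehicle and 3.16% to 3.83% in paxillin DHT. The part of these shares in the results for MALAT1 and NEAT1 was not tested.

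**Figure D3:**
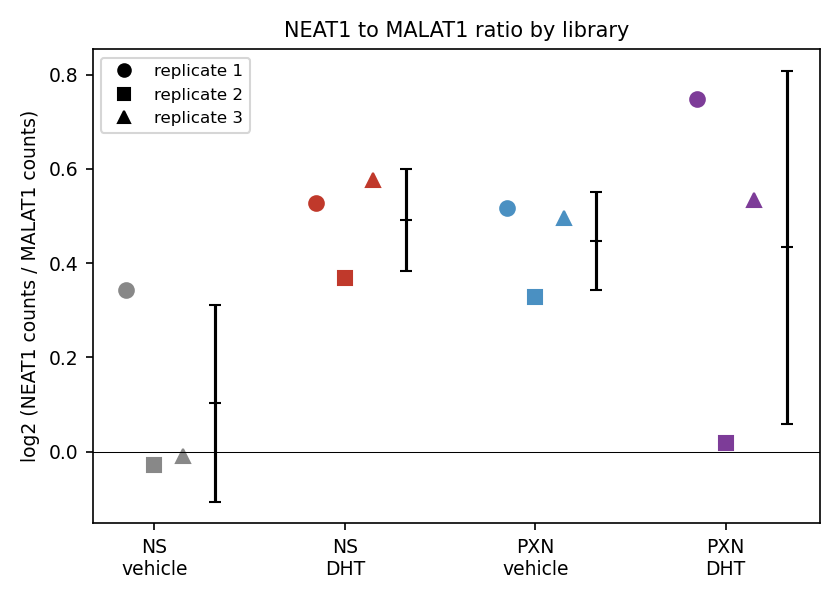
Log2 ratio of NEAT1 to MALAT1 counts (vertical axis) in each library by group, with the group mean and SD (n = 3) at the right of the points. Nonspecific vehicle replicates 2 and 3 and paxillin DHT replicate 2 lie near 0, where both RNAs have equal counts, and the other 9 libraries lie above 0.3.

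The ratio of NEAT1 to MALAT1 counts within a library needs no scaling between libraries. It was 1.27, 0.981 and 0.994 in nonspecific vehicle, 1.44, 1.29 and 1.49 in nonspecific DHT, 1.43, 1.26 and 1.41 in paxillin vehicle and 1.68, 1.01 and 1.45 in paxillin DHT. Nonspecific vehicle had the lowest geometric mean, 1.07, and the others lay between 1.35 and 1.41. The difference of the log2 ratio between DHT and vehicle within siRNA was 0.19 (exact two-sided permutation test, p = 0.205, where the smallest possible p is 0.005). Between the siRNAs within treatment it was 0.14 (exact permutation p = 0.36). Both differences were larger without paxillin DHT replicate 2, at 0.29 (exact permutation p = 0.005) and 0.25 (exact permutation p = 0.045). As each of the 12 libraries was left out in turn, the exact permutation p ran from 0.005 to 0.435 and from 0.045 to 0.7.

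Levels of different genes can be compared only per length, and for that the CPM were divided by kilobases of annotated exon. By that length MALAT1 came first in every group, at 24.2, 14.0, 15.9 and 12.3 CPM per kb in nonspecific vehicle, nonspecific DHT, paxillin vehicle and paxillin DHT. NEAT1 followed at 10.3, 7.67, 8.40 and 6.39 CPM per kb, although its unscaled level in CPM was higher in each group by mean. DRAIC was at 0.832, 0.372, 1.47 and 0.646 CPM per kb. PCAT14 reached 0.259 and 0.156 CPM per kb in the nonspecific and paxillin DHT groups. The order MALAT1, NEAT1, DRAIC, PCAT14 held in every library. The distance between DRAIC and PCAT14 was smallest with nonspecific siRNA and DHT, where DRAIC was lowest and PCAT14 highest. By length of the longest transcript, DRAIC was at 0.761 to 3.01 CPM per kb by group, about double, and the order of group means was the same. That change of length cannot test the order of MALAT1 and NEAT1, since NEAT1 is divided by 22767 or 22743 bases. The short transcript NEAT1-208 has 2994 bases, and the counts do not separate short from long. The order of these 2 RNAs therefore holds for these lengths only.

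**Figure D4:**
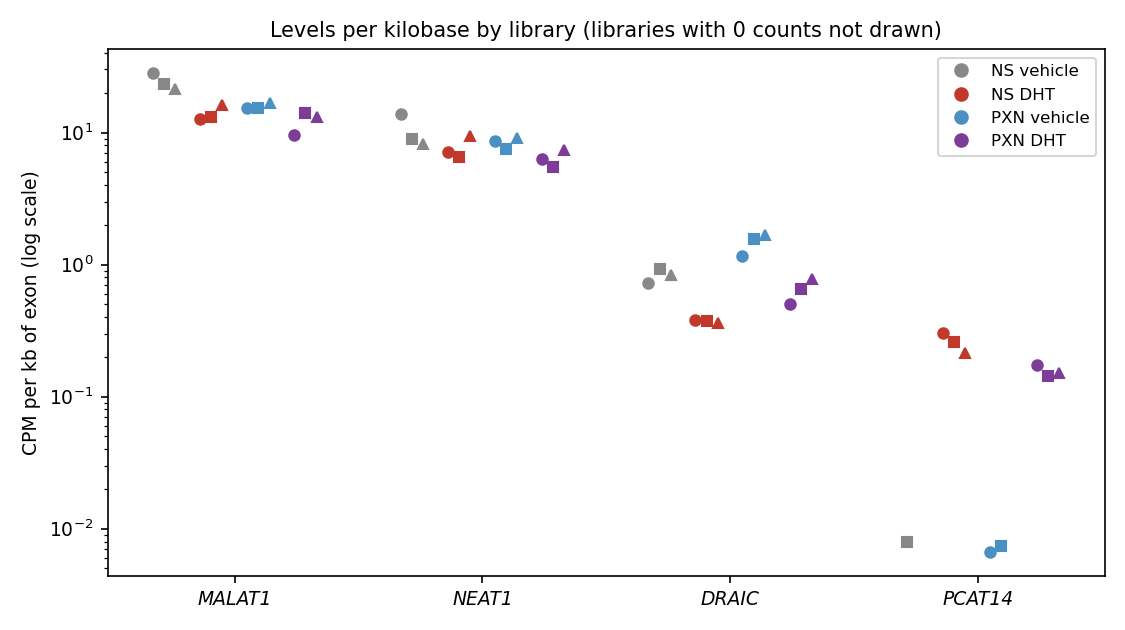
Level in CPM per kb of annotated exon (log axis) of the 4 tested RNAs in each library; circles, squares and triangles are replicates 1, 2 and 3 and colours are groups. By these lengths the order MALAT1, NEAT1, DRAIC, PCAT14 holds in each group, with NEAT1 divided by nearly the length of its long transcript. The PCAT14 vehicle libraries with 0 counts cannot be drawn.

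The MALAT1 promoter is shown because MALAT1 was called with both agents. RefSeq lists 2 windows for MALAT1, at chr11:65497488-65497787 and chr11:65498795-65499094 of GRCh38.p14, plus strand. The first has 73.7% G and C, 37 CpG dinucleotides and none of the 4 words searched. The second has 46.0% G and C and 14 CpG dinucleotides. It is printed with capitals for TGTTCT, the word AGAACA read on the minus strand, 41 bases before the start, and for TATAAA, 30 bases before it.
MALAT1: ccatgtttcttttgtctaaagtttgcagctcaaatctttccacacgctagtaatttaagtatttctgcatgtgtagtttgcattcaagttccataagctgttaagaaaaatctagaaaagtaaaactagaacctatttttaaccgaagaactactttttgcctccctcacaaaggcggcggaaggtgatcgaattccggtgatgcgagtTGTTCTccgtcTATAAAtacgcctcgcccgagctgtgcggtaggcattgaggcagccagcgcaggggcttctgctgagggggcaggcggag
Both words are common in promoter windows, as given for DRAIC, and a match is no evidence of binding. PCGEM1 had 1 match to AGAACA and 1 to CCAAT, and the 2 PCA3 windows had no match. RefSeq windows were matched for 4 of the 6 RNAs, not for NEAT1 and PCAT14.

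Genes around NEAT1 and MALAT1 did not share one direction. Within 200 kb of the MALAT1 start, 16 genes were tested, NEAT1 included. With DHT under nonspecific siRNA, 6 rose and 4 fell, and under paxillin siRNA 4 rose and 2 fell. Of all tested genes, 40.5% and 38% were called in these comparisons. LTBP3, which binds latent TGF-beta, fell with DHT by 0.25 on the log2 scale under each siRNA (edgeR adjusted p = 0.0142 and 0.0134). SLC25A45, a mitochondrial carrier gene before NEAT1, rose with paxillin siRNA by 0.52 in vehicle (adjusted p = 0.000826) and by 0.36 in DHT (adjusted p = 0.0133).

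Genes whose proteins work with these RNAs showed no common direction. Of 31 tested paraspeckle protein genes, 6 rose and 4 fell with DHT under nonspecific siRNA, and 7 rose and 3 fell under paxillin siRNA. In each case 32.3% were called, beside 40.5% and 38% of all tested genes. The median log2 change was 0.02 and 0.06, beside -0.01 for all tested genes in both cases. DAZAP1, an RNA-binding protein, rose by 0.38 ± 0.07 under nonspecific siRNA (SE; edgeR adjusted p = 0.000242). With paxillin siRNA 2 rose and 2 fell in vehicle, and 2 rose and 3 fell in DHT. The shares called were 12.9% and 16.1%, beside 20.5% and 13.3% of all tested genes. HNRNPH3, a splicing regulator, fell by 0.53 ± 0.06 in vehicle (adjusted p = 2.86e-05) and by 0.60 ± 0.06 in DHT (adjusted p = 2.13e-05). PSPC1, a core paraspeckle protein, rose by 0.27 ± 0.07 (adjusted p = 0.00706) and 0.30 ± 0.07 (adjusted p = 0.00637).

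Of 36 tested genes for nuclear speckle proteins and SR splicing factors, 8 rose and 7 fell with DHT under nonspecific siRNA, and 8 rose and none fell under paxillin siRNA. That is 41.7% and 22.2% called, beside 40.5% and 38% of all tested genes, and the median log2 changes were -0.02 and 0.04. None of the 36 passed the test of the interaction, so a difference between the siRNAs is not shown. SRPK1, a kinase of SR proteins, rose by 0.59 ± 0.06 (SE; edgeR adjusted p = 1.35e-07) and 0.54 ± 0.05 (adjusted p = 3.24e-07). With paxillin siRNA none rose and 3 fell in vehicle, among them the SR protein kinase CLK1 by 0.43 ± 0.08 (adjusted p = 0.00149), and 1 rose in DHT. The shares called were 8.33% and 2.78%, beside 20.5% and 13.3% of all tested genes.

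Of 15 tested genes for processing of the MALAT1 and NEAT1 ends, the RNase P subunit genes POP1 and POP7 rose with DHT under both siRNAs and none fell. In each case 13.3% were called, beside 40.5% and 38% of all tested genes. POP1 rose by 0.91 ± 0.10 under nonspecific siRNA (SE; edgeR adjusted p = 9.68e-07) and by 0.63 ± 0.10 under paxillin siRNA (adjusted p = 4.68e-05). With paxillin siRNA in vehicle 2 rose and 3 fell, and in DHT none rose and 2 fell. The shares called were 33.3% and 13.3%, beside 20.5% and 13.3% of all tested genes. NUDT21, a cleavage factor that acts at the short NEAT1 end, fell by 0.38 ± 0.08 in vehicle (adjusted p = 0.00211) and by 0.38 ± 0.08 in DHT (adjusted p = 0.00349). Of 13 genes that host, neighbour or partner the RNAs, 3 rose and 5 fell with DHT under nonspecific siRNA and 3 rose and 3 fell under paxillin siRNA. The shares called were 61.5% and 46.2%, on 13 genes, beside 40.5% and 38% of all tested genes. Of the 13, IKBKB, which encodes a kinase of the NF-kB pathway reported to be bound by DRAIC, fell by 0.37 ± 0.06 (adjusted p = 9.41e-05) and by 0.38 ± 0.06 (adjusted p = 6.21e-05). CHUK and IKBKG, of the same pathway and list, were not called with DHT (adjusted p = 0.894 and 0.153, then 0.916 and 0.923). The largest change on the list was a rise of IGF1R, by 2.21 and 2.25.

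Other prostate long noncoding RNAs answered DHT in both directions. Of 17 listed, 15 were in the table and 9 passed the filter; the 6 that did not had at most 15 counts in any library. With DHT, 5 of the 9 rose and 2 fell under each siRNA, with median log2 changes of 0.39 and 0.40. In each case 77.8% were called, on 9 genes, beside 40.5% and 38% of all tested genes. Among the 5, PCAT18 passed the filter through its DHT libraries alone, so its rise followed from the filter and is no support. PCAT18 was closest to PCAT14 in its counts. It held 1 count in nonspecific vehicle and 102 in nonspecific DHT, a ratio of 90.4 with an exact counting interval of 15.9 to 3605. With paxillin siRNA it held 7 and 148 counts, a ratio of 22.1 (interval 10.5 to 56.0). CTBP1-AS, an antisense RNA of the corepressor gene CTBP1, went from 3.29 ± 0.542 to 15.8 ± 2.89 CPM with nonspecific siRNA and from 5.20 ± 0.742 to 14.5 ± 1.26 CPM with paxillin siRNA (SD, n = 3 each). SOCS2-AS1 rose from 1.28 ± 0.350 to 2.93 ± 0.554 CPM and from 0.702 ± 0.0430 to 3.12 ± 0.386 CPM. As antisense genes, both may share reads with their partners.

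PCAT6 and SCHLAP1 rose by less, at 0.51 and 0.39 on the log2 scale under nonspecific siRNA (edgeR adjusted p = 0.0033 and 0.0348). The 2 that fell were PCAT29, described with DRAIC, and LINC01138, by 0.76 (adjusted p = 0.0076) and 0.87 (adjusted p = 0.00238) under nonspecific and paxillin siRNA. With paxillin siRNA in vehicle, CTBP1-AS and PRKAG2-AS1 rose and SOCS2-AS1 fell, and in DHT PRKAG2-AS1 alone of the 9 rose, by 0.91 ± 0.19 (SE; adjusted p = 0.00365). The shares called were 33.3% and 11.1%, on 9 genes, beside 20.5% and 13.3% of all tested genes. PRKAG2-AS1 was not called with DHT under either siRNA, and none of the 9 was called in all 4 pairwise comparisons.

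Of 28 widely studied long noncoding RNAs, 27 were in the table and 19 were tested. With DHT 5 rose and 2 fell under nonspecific siRNA (36.8% called), and 4 rose and 1 fell under paxillin siRNA (26.3%), beside 40.5% and 38% of all tested genes. LINC-PINT rose by 1.22 ± 0.25 (SE; edgeR adjusted p = 0.000728) and 1.61 ± 0.24 (adjusted p = 3.1e-05). KCNQ1OT1 and DLEU2 fell under nonspecific siRNA, and DANCR under paxillin siRNA. With paxillin siRNA in vehicle 1 fell, SNHG1 by 0.28 ± 0.08 (adjusted p = 0.0185), and in DHT none was called. Of all tested genes, 20.5% and 13.3% were called in these comparisons. The 8 untested RNAs, among them HOTAIR, H19 and MEG3, had at most 11 counts in any library.

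**Figure D5:**
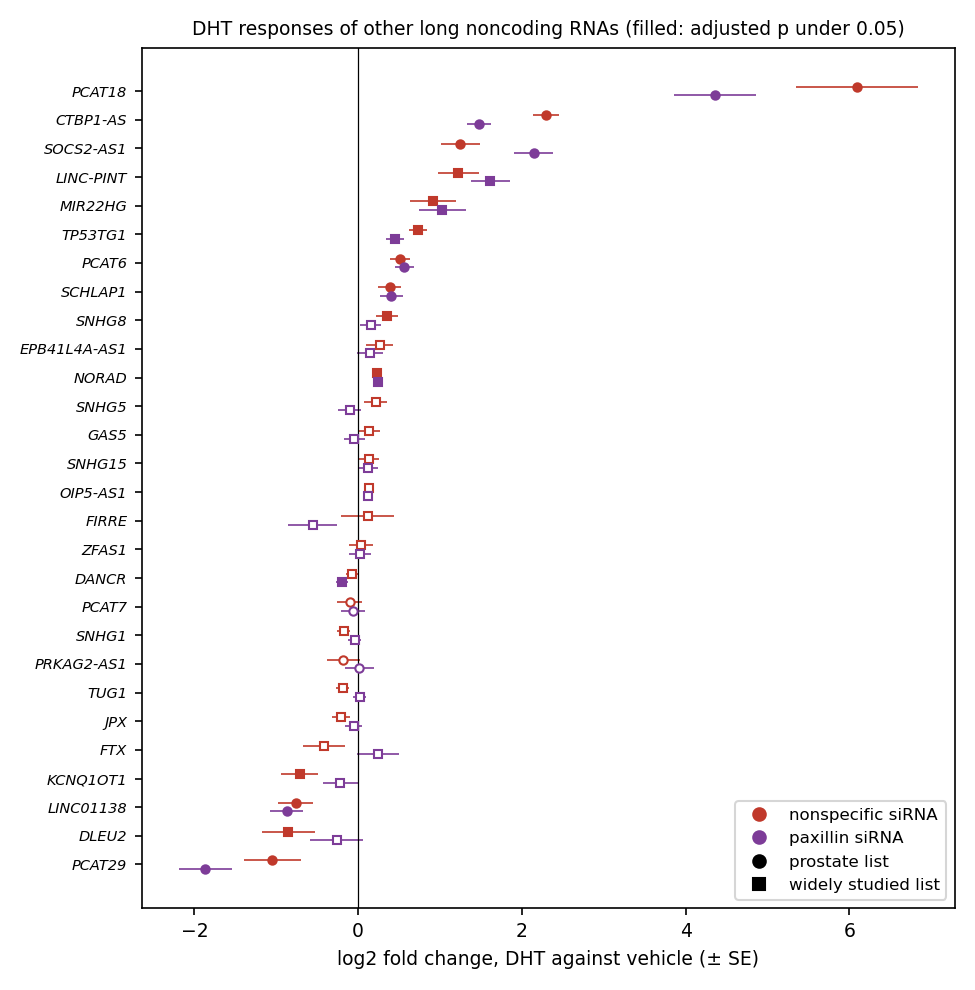
Log2 fold change with DHT (horizontal axis, ± SE) of 28 tested long noncoding RNAs other than the 6, under nonspecific and paxillin siRNA, ordered by the first. Circles are the prostate list, squares the widely studied list, and filled points have an adjusted p under 0.05. PCAT18 and CTBP1-AS lie at the top, and PCAT29 at the bottom.

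Long noncoding genes as a class had fewer rises with DHT than protein-coding genes and a like share of falls. Of the 651 tested, 59 rose and 142 fell under nonspecific siRNA, with a median log2 change of -0.21, and 47 rose and 133 fell under paxillin siRNA, with a median of -0.22. The shares were 9.06% higher and 21.8% lower, then 7.22% and 20.4%. Among 12616 protein-coding genes they were 25.2% higher and 20.6% lower under nonspecific siRNA, then 23.3% and 19.2%, with medians of 0.01 and 0.02. The difference between the classes was not tested, and the classes were not matched for level. The falls of MALAT1 and DRAIC ranked 112th and 61st of the 651 under nonspecific siRNA, and 239th and 53rd under paxillin siRNA. By mean level NEAT1 was 5th and MALAT1 8th, DRAIC 64th at 15.3 CPM and PCAT14 533rd at 0.518 CPM, so most of the 651 were low.

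The genes whose log2 CPM ran most like each RNA over the 12 libraries were taken from the other genes averaging 5 CPM or more (10701 for PCAT14 and 10700 for the others), as a description, since libraries of a group share their treatment. For DRAIC they were PIK3R3, a regulatory subunit of phosphoinositide 3-kinase (Pearson r = 0.993), EEPD1 (r = 0.987) and GFM2 (r = 0.987). PIK3R3 was at 276, 159, 414 and 250 CPM in nonspecific vehicle, nonspecific DHT, paxillin vehicle and paxillin DHT, the same order of groups as DRAIC. For PCAT14 they were ODC1, the first enzyme of polyamine synthesis (r = 0.994), CMC2 (r = 0.991) and CBWD1 (r = 0.989). ODC1 was at 584, 3672, 536 and 2647 CPM in the same groups. The likeness was lower for MALAT1, with IQGAP1 (r = 0.954), GLG1 (r = 0.945) and DOPEY1 (r = 0.943), and for NEAT1, with REEP3 (r = 0.939), TLCD1 (r = 0.939) and ITGA5 (r = 0.928).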

How the data were processed

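The authors deposited a table of counts for 56269 gene symbols in 12 libraries, whole numbers with unequal totals, used as raw counts. The library kit was Illumina's stranded TruSeq for mRNA, per the labels' protocols. Trimmomatic 0.36, STAR 2.5.2b, featureCounts of Subread 1.5.0p3 and GRCh38 are named per the submitters' processing notes; which annotation release and strand setting were used is not given in the sources used here. Whether replicates came from separate cultures is not said, and the spread that p-values rest on may be technical.

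The main test was the quasi-likelihood test of edgeR 4.0.16 in R 4.3.3. After filterByExpr (minimum count 10, minimum total 15), 16115 genes were left. With TMM scaling, 1 mean per group was fitted over all 12 libraries and 5 contrasts were taken, with Benjamini-Hochberg adjustment over all tested genes and a threshold of 0.05; the fit was tested on simulated data. DESeq2 1.42.0, limma-voom (limma 3.58.1), other scalings, no filter, a replicate block, fits of the compared groups only and leaving out each library were the alternatives. Same-numbered libraries of different groups deviated together from their group means (Pearson r 0.14 to 0.48 over 18 pairs, median 0.27, against a median of -0.11 over 36 pairs with different numbers), so the numbers in the titles pair the samples by this check. The main fit and the permutation test have no block. The blocked fit was an alternative, with its value given where it changed a call of the 4 tested RNAs. Calls of list genes, neighbours and other long noncoding RNAs are from the fit without the block and were not compared with it. With the block more genes were called, such as 2384 higher and 2173 lower against 1727 and 1576 for paxillin siRNA in vehicle. Pairs of libraries within groups differed beyond counting noise.

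Floors are 3 counts over a group, and 95% count-ratio intervals are exact conditional binomial; both cover counting error only. Exon lengths, positions and transcripts come from GENCODE 29, whose models may differ from the authors', and promoters from RefSeq (GRCh38.p14); 13947 tested symbols matched 1 GENCODE gene. List genes named are from the up to 2 with the largest called change in each direction, per list and comparison, that reached 5 CPM in some group; the prostate and widely studied RNAs were named beyond that rule after their values were seen. The RNAs, gene lists and rules were chosen with earlier results of these data known.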

Additional observations from a re-analysis of the deposited data

How the results depend on the processing

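Over the 4 tested RNAs and the NEAT1 to MALAT1 ratio, 127 of 137 values under other settings, and 241 of 264 values with 1 library left out, kept their direction and side of the threshold. These totals include the PCAT14 responses to DHT, which followed from the filter and are no support. They also count as kept the PCAT14 interaction with DESeq2, which had no adjusted p. DRAIC kept its direction and side of the threshold for DHT and for paxillin siRNA under all 19 alternatives. NEAT1 with DHT under nonspecific siRNA missed the threshold with DESeq2 (-0.43) and limma-voom (-0.40), and ran from -0.58 to -0.15 with 1 library left out. Under paxillin siRNA NEAT1 passed with upper-quartile scaling (-0.48, adjusted p = 0.0251), no filter (-0.39), the replicate block (-0.40) and only the compared groups (-0.40), and ran from -0.52 to -0.30 with 1 library left out. Without the filter NEAT1 also passed for paxillin siRNA in vehicle (-0.27, adjusted p = 0.00368) and in DHT (-0.25, adjusted p = 0.009), and the MALAT1 interaction passed (0.41). The differences themselves moved little. Their SE was smaller without the filter, at 0.07 against 0.16 for NEAT1 in vehicle and in DHT, and at 0.10 against 0.17 for the MALAT1 interaction. MALAT1 with DHT under paxillin siRNA ran from -0.47 to -0.22 with 1 library left out. Differences near 0 changed sign: the NEAT1 interaction with limma-voom (-0.0029) and, with 1 library left out, the interactions of DRAIC (-0.17 to 0.15) and NEAT1 (-0.25 to 0.19) and PCAT14 with paxillin siRNA in vehicle (-0.13 to 2.53). The ratio ran from 0.11 to 0.29 for DHT and from 0.065 to 0.25 for paxillin siRNA. Over all genes, the interaction called 6 higher and 2 lower in edgeR, 45 and 97 without the filter, 27 and 27 with DESeq2, 0 and 0 with limma-voom, 42 and 55 with the replicate block, and 0 to 12 and 0 to 14 with 1 library left out; 1435 genes had an unadjusted p under 0.05 in edgeR. Paxillin siRNA in DHT called 1021 higher and 1128 lower, 1681 and 1805 with the replicate block, and 484 to 1152 and 694 to 1319 with 1 library left out. In vehicle 987 to 1902 were higher and 861 to 1622 lower with 1 library left out. The replicate block changed no other call of the 4 RNAs. By longest transcript, DRAIC was at 1.71, 0.761, 3.01 and 1.32 CPM per kb in nonspecific vehicle, nonspecific DHT, paxillin vehicle and paxillin DHT, and PCAT14 at 0.323 and 0.195 in the DHT groups, because the length is shorter. For the other changes the cause was not tested. Counts of PCA3 and PCGEM1 were too few for any alternative.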
